A study of Mus musculus with 8 samples.

Results

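Efferocytosis is the uptake and clearance of apoptotic cells by phagocytes, and 10 of its genes were followed in mouse bone marrow-derived macrophages (BMDMs) after knockdown of the long noncoding RNA MAARS. They are the receptors Mertk, Axl, Lrp1 and Itgav, the bridging molecules Gas6, Pros1 and Mfge8, the inhibitory pair Sirpa and Cd47, and Dnm1l, which acts on the mitochondria of the engulfing cell. They were chosen for their roles in efferocytosis, with earlier results of these data known, and were found by matching the Ensembl identifiers of the count table to symbols in GENCODE M21. All 10 were among the 49315 genes of the table and among the 13051 that had enough counts to be tested. BMDMs from C57BL/6 mice, cultured with 10 ng/ml mMCSF, received 25 nM of a gapmeR, an antisense oligonucleotide through which RNase H cuts a chosen RNA. One group received the gapmeR against MAARS and the other a negative control gapmeR, and both groups went through the same lipid transfection. Ribodepleted RNA was sequenced as pairs of 100 nt from 4 control libraries (replicates 2, 5, 6 and 7) and 4 MAARS gapmeR libraries (replicates 9, 11, 13 and 15). The labels do not say whether these libraries came from separate cultures or animals, so p-values measure the spread between these libraries only, which may be technical.

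An apoptotic cell exposes phosphatidylserine, and macrophages bind it either directly or through soluble bridges. Gas6 and protein S, the product of Pros1, link it to the TAM receptor tyrosine kinases Tyro3, Axl and MerTK, while MFG-E8 links it to integrins that contain the αv chain. LRP1 binds calreticulin on the dying cell and signals for uptake, whereas CD47 engages SIRPα on the macrophage and restrains it. In atherosclerotic lesions poor efferocytosis leaves apoptotic cells to become necrotic, and MerTK is the receptor most closely tied to this clearance in macrophages.

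In the MAARS gapmeR libraries 5 of the 10 genes were higher, 3 were lower and 2 did not pass the test. The higher genes were Gas6, Lrp1, Pros1, Sirpa and Mertk, and the lower genes were Axl, Cd47 and Dnm1l. The changes were largest among the lower genes, where mean CPM of Axl fell by 57.5% and that of Cd47 fell by 33.9%, while the largest rise among the higher genes was 32.9% for Gas6. Mfge8 and Itgav were not called in either direction. Genes were called at an adjusted p under 0.05 in edgeR's quasi-likelihood test, where p-values were adjusted by Benjamini-Hochberg across all genes tested. These counts have to be read against a background in which 45.4% of all genes tested were called, 21.3% as higher and 24.0% as lower. The median log2 fold change was 0.17 over the 10 genes and 0.01 over all genes. CPM of the groups did not overlap for 7 of the 10 genes, beside 42.1% of all genes, and 2 of the 10, Axl and Cd47, were called with a change of at least 1.5-fold, beside 13.7% of all genes. When upper-quartile factors replaced TMM, the share of calls that were higher was 60.4% against 47.0%. Without MAARS gapmeR replicate 9 or without replicate 13 the number of higher genes fell from 5 to 3.

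The libraries held 19287279 to 20567123 counts with control gapmeR and 20839671 to 24541205 with MAARS gapmeR, so that each MAARS gapmeR library was deeper than each control library. MAARS itself stood at 12.2, 15.1, 13 and 12.2 CPM, which are counts brought to a shared library size with TMM factors, with control gapmeR and at 7.71, 6.41, 7.31 and 5.85 CPM with MAARS gapmeR. The groups did not overlap and the mean was 48.1% lower (log2 fold change -0.95, standard error 0.112, adjusted p = 5.80e-05 in edgeR's quasi-likelihood test), which is the direction of the labels. All 8 macrophage markers examined were present, with summed levels of 20441 to 24300 CPM with control gapmeR and 22271 to 25533 CPM with MAARS gapmeR. Of these 8 markers 4 were higher and 3 lower, so they were not level. On the log2 scale Fcgr1 fell furthest, from 808.2 ± 173.7 to 189.6 ± 42.7 CPM. Cd14 rose furthest, from 99.5 ± 21.3 to 166.1 ± 14.2 CPM. Adgre1, which encodes F4/80, was not called, at 1296 and 1332 CPM. Fibroblast markers summed to 503.9 to 1152 CPM and 779.9 to 1353 CPM, with 0 of 7 tested called by edgeR (1 at an unadjusted p under 0.05, 1 by DESeq2 and 0 by limma-voom), and smooth muscle markers to 64.8 to 121.8 CPM and 120.8 to 213.7 CPM, with 3 of 5 tested higher. Summed endothelial markers stood at 49.2 to 79.7 CPM and 77.3 to 140.4 CPM, with 1 of 4 tested higher (Vwf, 45.2 ± 15.3 and 92.4 ± 26.9 CPM) and 1 lower (Kdr, 16.3 ± 1.79 and 5.6 ± 0.221 CPM). Dendritic cell markers, at 20.4 to 26.2 CPM and 25.9 to 30.4 CPM, were almost entirely Itgax, which was higher (21.3 ± 1.81 and 26.9 ± 1.83 CPM). Neutrophil markers were at 52.9 to 149.3 CPM and 55.7 to 89.1 CPM. The T cell markers were at or near 0 (Cd3g at 0, Cd3e, Cd3d, Cd8a and Trac close to it) except for Cd4, which macrophages can express and which was lower (74.0 ± 8.59 and 46.2 ± 4.72 CPM). These marker genes were named after their values were seen. Mast cell and erythroid markers (Mcpt4 at 0) did not exceed 1.46 CPM. These are bulk samples, in which fewer cells of a type and less RNA per cell cannot be told apart. A set of 12 interferon-induced genes was lower throughout, with a median log2 fold change of -3.39.

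**Figure D1:**
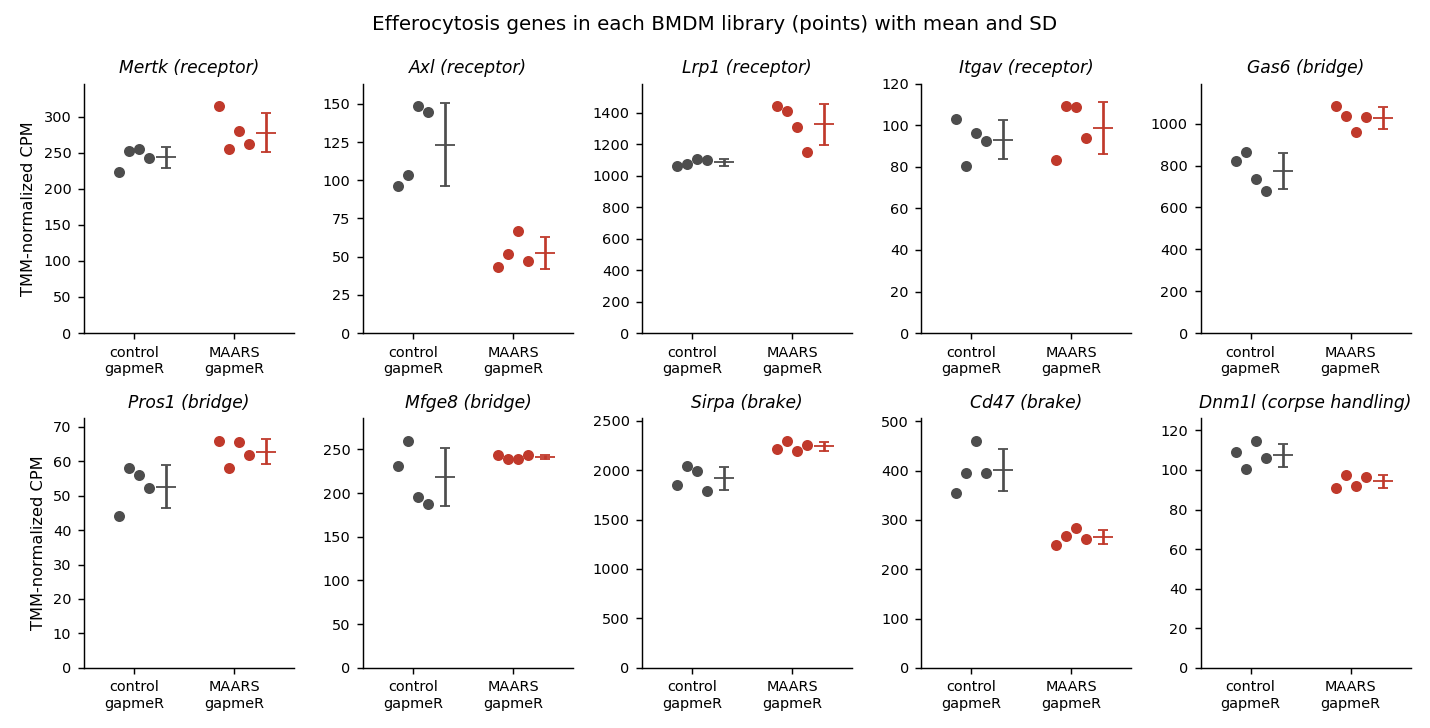
TMM-normalized CPM of each gene (y axis, from 0) in the 4 control gapmeR libraries (grey, replicates 2, 5, 6 and 7 from left to right) and the 4 MAARS gapmeR libraries (red, replicates 9, 11, 13 and 15), with the mean and SD beside the points. Axl and Cd47 lie lower in each MAARS gapmeR library than in any control library, Gas6, Lrp1 and Sirpa lie higher, and Itgav, Mfge8 and Mertk overlap.

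The receptors did not move together. Mertk encodes MerTK, and the gene lies on chromosome 2 from 128698956 to 128802894 of GRCm38, 50.4 Mb from the end of MAARS on the same chromosome. Its levels were 223.6, 252.3, 255.8 and 242.5 CPM with control gapmeR and 314.5, 255.0, 280.3 and 262.0 CPM with MAARS gapmeR. Replicate 9 was the highest of the 8 libraries, and the lowest MAARS gapmeR library stood just under the highest control library, so the groups overlapped. Mean ± SD over 4 libraries per group, as in all means that follow, was 243.6 ± 14.4 and 278.0 ± 26.6 CPM, and the log2 fold change was 0.19 (95% interval 0.04 to 0.34) with an adjusted p = 0.0418 in edgeR's quasi-likelihood test. That call was lost in 6 of the 8 fits that left out 1 library, with a log2 fold change of 0.12 and an adjusted p = 0.123 without MAARS gapmeR replicate 9.

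Axl, a TAM receptor that is also known as an interferon-induced gene in macrophages, lies on chromosome 7 from 25757273 to 25788705. It gave 96.5, 103.7, 148.4 and 144.5 CPM in the control libraries. In the MAARS gapmeR libraries it gave 43.3, 51.6, 67.1 and 47.4 CPM. The control libraries fell into a lower and a higher pair, and all 4 MAARS gapmeR libraries were below both. The mean fell from 123.3 ± 27.0 to 52.4 ± 10.4 CPM, a log2 fold change of -1.24 (95% interval -1.59 to -0.88, adjusted p = 1.09e-04 in edgeR's quasi-likelihood test). Tyro3, the remaining TAM receptor, was named after its values were seen: it was barely detected, at 0.696 ± 0.387 and 1.29 ± 0.276 CPM, and was not called (adjusted p = 0.053 in edgeR's test).

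Lrp1, an endocytic receptor of the LDL receptor family, lies on chromosome 10 from 127538161 to 127621148. Its levels were 1060, 1076, 1108 and 1099 CPM in the control libraries and 1441, 1410, 1310 and 1151 CPM in the MAARS gapmeR libraries. The control libraries lay close together and the MAARS gapmeR libraries were spread out above them, replicate 15 being the nearest. The mean was 1086 ± 21.7 and 1328 ± 130.3 CPM, a log2 fold change of 0.29 (95% interval 0.14 to 0.44, adjusted p = 0.00456 in edgeR's quasi-likelihood test).

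Itgav encodes the integrin αv chain, which pairs with several β chains, and it is the gene of the 10 that lies nearest to MAARS, on chromosome 2 from 83724397 to 83806916, a distance of 5.42 Mb. It measured 103.0, 80.5, 96.5 and 92.6 CPM with control gapmeR and 83.4, 109.2, 109.0 and 93.7 CPM with MAARS gapmeR. The ranges lay across each other. The log2 fold change of 0.09 had a 95% interval from -0.12 to 0.29 (adjusted p = 0.482 in edgeR's quasi-likelihood test), so changes inside this interval could not be told from none. A gene on the opposite strand covers 5.9% of the exonic bases of Itgav, and whether the counting used strand is not given in the sources used here.

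The bridging molecules differed in the size of their shift. Gas6, the vitamin K-dependent TAM ligand, lies on chromosome 8 from 13465374 to 13494490. It had 821.6, 862.8, 733.5 and 676.9 CPM in the control libraries and 1083, 1038, 959.4 and 1030 CPM in the MAARS gapmeR libraries. Each MAARS gapmeR library was above each control library. Its mean rose from 773.7 ± 84.1 to 1028 ± 51.3 CPM (log2 fold change 0.41, 95% interval 0.25 to 0.57, adjusted p = 0.00104 in edgeR's quasi-likelihood test).

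Pros1 encodes protein S, which is also an anticoagulant of plasma, and lies on chromosome 16 from 62854307 to 62929346. Its levels were 44.0, 58.1, 56.1 and 52.2 CPM with control gapmeR and 65.9, 58.1, 65.6 and 61.8 CPM with MAARS gapmeR. Control replicate 5 and MAARS gapmeR replicate 11 nearly touched, and the other libraries separated. The log2 fold change was 0.26 (95% interval 0.08 to 0.43, adjusted p = 0.0231 in edgeR's quasi-likelihood test). It was 0.23 without MAARS gapmeR replicate 9 and without replicate 13, where the adjusted p was 0.0619 and 0.0624 and the call was lost.

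Mfge8 encodes lactadherin, the bridge to αv integrins, and lies on chromosome 7 from 79133768 to 79149060. It gave 231.6, 259.6, 195.6 and 187.3 CPM in the control libraries against 243.4, 238.9, 239.4 and 243.4 CPM in the MAARS gapmeR libraries. The MAARS gapmeR libraries were nearly level, and they lay inside the much wider range of the controls. The means were 218.5 ± 33.5 and 241.2 ± 2.48 CPM, and the log2 fold change of 0.14 (95% interval -0.05 to 0.33) was not called (adjusted p = 0.205 in edgeR's quasi-likelihood test). Without control replicate 5 it was 0.23 and was called (adjusted p = 0.0196).

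The RNA of the inhibitory pair moved in opposite directions. For protein, the study found no significant change of CD47, SIRPα or the product of Dnm1l in BMDMs with MAARS silenced, by flow cytometry or Western blot. Sirpa, the gene of the macrophage receptor SIRPα, lies on chromosome 2 from 129592835 to 129632228 and gave the most counts of the 10 genes. It stood at 1852, 2042, 1990 and 1790 CPM with control gapmeR and at 2215, 2294, 2194 and 2255 CPM with MAARS gapmeR. The groups were apart and the MAARS gapmeR libraries were the more even. The mean rose by 16.7%, from 1919 ± 117.2 to 2240 ± 44.5 CPM (log2 fold change 0.22, 95% interval 0.10 to 0.34, adjusted p = 0.00598 in edgeR's quasi-likelihood test).

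Cd47 encodes the ligand of SIRPα, which healthy cells, macrophages included, carry as a signal against uptake. The gene lies on chromosome 16 from 49800533 to 49915010. Its levels were 354.9, 395.1, 460.1 and 395.7 CPM in the control libraries and 249.9, 266.6, 283.3 and 261.6 CPM in the MAARS gapmeR libraries. The highest MAARS gapmeR library was well below the lowest control library. The log2 fold change was -0.60 (95% interval -0.76 to -0.44, adjusted p = 7.15e-05 in edgeR's quasi-likelihood test).

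Dnm1l encodes DRP1, the dynamin-related GTPase that divides mitochondria and that macrophages need for the uptake of successive apoptotic cells. It lies on chromosome 16 from 16312230 to 16358959. It measured 109.0, 100.7, 114.6 and 105.8 CPM with control gapmeR and 90.9, 97.4, 92.0 and 96.5 CPM with MAARS gapmeR. The groups did not overlap, although MAARS gapmeR replicate 11 came near control replicate 5. The mean fell by 12.4%, a log2 fold change of -0.19 (95% interval -0.30 to -0.08, adjusted p = 0.0089 in edgeR's quasi-likelihood test). With upper-quartile factors the log2 fold change was -0.13 and the call was lost (adjusted p = 0.0515). Of the exonic bases of Dnm1l 4.67% are covered by a gene on the opposite strand, and whether the counting used strand is not given.

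**Figure D2:**
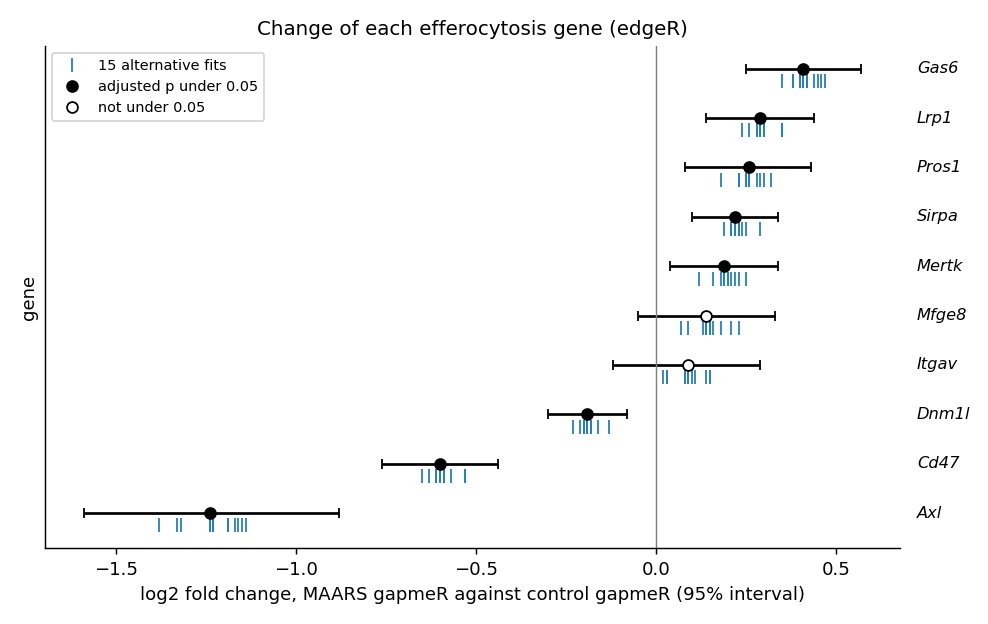
Log2 fold change of the 10 genes, MAARS gapmeR against control gapmeR, with 95% intervals from edgeR's quasi-likelihood fit. Axl (-1.24) and Cd47 (-0.60) stand furthest below 0, Gas6 (0.41) and Lrp1 (0.29) furthest above it, and the intervals of Itgav and Mfge8 include 0.

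Levels of different genes were compared per kilobase of exon (RPKM, from TMM-scaled counts). With control gapmeR the order from high to low was Sirpa (390.7 ± 23.9 RPKM), Gas6 (303.7 ± 33.0 RPKM), Cd47 (64.0 ± 6.93 RPKM), Lrp1 (61.3 ± 1.23 RPKM), Mertk (56.2 ± 3.32 RPKM), Mfge8 (46.6 ± 7.13 RPKM), Axl (24.5 ± 5.36 RPKM), Dnm1l (20.7 ± 1.12 RPKM), Pros1 (12.9 ± 1.53 RPKM) and Itgav (8.67 ± 0.879 RPKM). Among neighbours in that order the ranges over libraries overlapped for Cd47 and Lrp1, for Mertk and Mfge8, and for Axl and Dnm1l. With MAARS gapmeR the levels were 456.0 ± 9.07 RPKM for Sirpa, 403.4 ± 20.1 RPKM for Gas6, 75.0 ± 7.36 RPKM for Lrp1, 64.1 ± 6.13 RPKM for Mertk, 51.4 ± 0.527 RPKM for Mfge8, 42.3 ± 2.21 RPKM for Cd47, 18.1 ± 0.626 RPKM for Dnm1l, 15.4 ± 0.901 RPKM for Pros1, 10.4 ± 2.07 RPKM for Axl and 9.20 ± 1.17 RPKM for Itgav. There Lrp1 overlapped Mertk and Axl overlapped Itgav. In this order Cd47 went from place 3 to place 6 and Axl from place 7 to place 9. With control gapmeR Cd47 (56.5 to 73.3 RPKM) also overlapped Mertk (51.6 to 59.0 RPKM), which is not its neighbour. Because of the overlaps these places are approximate.

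The balance between paired genes was taken within each library as a log2 ratio of counts per exon length, which does not depend on how libraries are scaled. The ratio of Mertk to Axl was 1.43, 1.5, 1.00 and 0.96 with control gapmeR and 3.07, 2.52, 2.28 and 2.68 with MAARS gapmeR. In linear terms the mean was 2.33 counts per exon length of Mertk for each of Axl in the controls and 6.23 with MAARS gapmeR, and no library of one group reached the other. The difference of 1.42 had an exact permutation p = 0.0286, two-sided, the smallest that 4 against 4 libraries can give, and an adjusted p = 0.0429 over the 3 ratios (exact permutation test with Benjamini-Hochberg adjustment). It restates the changes of the single genes and lies mostly in Axl, with log2 fold changes of -1.24 for Axl and 0.19 for Mertk.

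The ratio of Sirpa to Cd47, receptor to ligand, was 2.74, 2.72, 2.47 and 2.53 in the control libraries and 3.50, 3.46, 3.31 and 3.46 in the MAARS gapmeR libraries. The difference of 0.82 took the linear mean ratio from 6.13 to 10.8 (exact permutation p = 0.0286, adjusted p = 0.0429). Sirpa was higher and Cd47 lower in every MAARS gapmeR library, so this ratio had to separate the groups. Its p-value therefore adds nothing to the results of the single genes. Gas6 to Pros1, the TAM ligands, gave 4.91, 4.57, 4.39 and 4.38 with control gapmeR and 4.72, 4.84, 4.55 and 4.74 with MAARS gapmeR. These ranges overlapped, and the difference of 0.15 did not pass the exact permutation test (p = 0.371, adjusted p = 0.371). Gas6 thus gave 23.6 and 26.2 times as many counts per length as Pros1 in the control and MAARS gapmeR libraries.

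**Figure D3:**
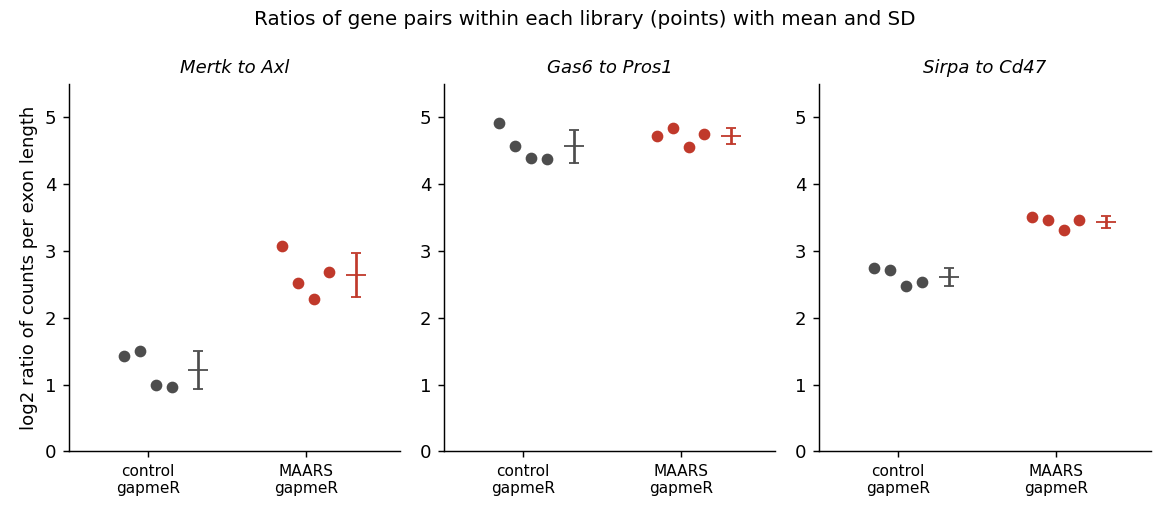
Log2 ratio of counts per exon length within each library (y axis) for Mertk to Axl, Gas6 to Pros1 and Sirpa to Cd47, control gapmeR in grey and MAARS gapmeR in red, with mean and SD. The ratios of Mertk to Axl and of Sirpa to Cd47 separate the groups, with means of 1.22 and 2.64 and of 2.61 and 3.43, while Gas6 to Pros1 overlaps (4.56 and 4.71).

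The promoters of the genes that fell most are unlike in base composition, and are shown because Axl and Cd47 moved together. RefSeq promoters on GRCm38.p6, from 250 bases before to 50 after the transcription start, were found for 9 of the 10 genes, with 11 promoters in all. The median promoter of the RefSeq set holds 7 CpG dinucleotides, against 6 for Axl and 35 for Cd47. A second promoter of Cd47 holds 36, and the promoters of the other efferocytosis genes hold from 14 to 33, so a high count is not particular to Cd47. The 120 bases before the start are given 5′ to 3′ on the strand of the gene, chr7:25788734-25788853 on the minus strand for Axl and chr16:49855534-49855653 on the plus strand for Cd47 (a start inside the GENCODE gene span), with CpG in capitals. They hold 3 and 20 CpG dinucleotides.
Axl: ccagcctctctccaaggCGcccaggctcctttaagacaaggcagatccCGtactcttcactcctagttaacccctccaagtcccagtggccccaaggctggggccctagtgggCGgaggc
Cd47: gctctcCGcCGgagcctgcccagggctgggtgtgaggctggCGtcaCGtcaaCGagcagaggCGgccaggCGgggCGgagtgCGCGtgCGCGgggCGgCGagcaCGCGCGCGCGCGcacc

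Promoters were also searched on both strands for GAAANNGAA, the core of an interferon-stimulated response element, and for the AP-1 site TGANTCA. The former was present in 8.56% and the latter in 7.81% of 32851 promoters, and in 6 and 3 of the 9 interferon-induced genes that had a RefSeq promoter. Among the promoters of the efferocytosis genes the letters GAAANNGAA stood only in that of Itgav, 190 bases before the start and reading on the opposite strand, and TGANTCA stood in none. A match is a string of letters, and its absence says only that these letters are not in this window. The stretch at chr2:83724181-83724240, plus strand, is printed with the match in capitals to show the one occurrence, in a gene that was not called.
Itgav: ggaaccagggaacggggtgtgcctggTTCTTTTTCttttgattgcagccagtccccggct

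HuR, the RNA-binding protein that the study follows, recognizes AU-rich stretches in 3′ UTRs, and the pentamer ATTTA was counted in the longest annotated 3′ UTR of each gene. Itgav held 19 in 3581 nt and Cd47 held 8 in 4133 nt. Of 11797 genes tested that have a 3′ UTR, 1.03% held as many as Itgav and 11.3% as many as Cd47. The rest ranged from 0 in Axl (1389 nt) and Mfge8 (641 nt) over 1 in Gas6 (372 nt), Lrp1 (1004 nt) and Sirpa (2044 nt), and 2 in Mertk (1227 nt) and Pros1 (1153 nt), to 4 in Dnm1l (1757 nt). The median 3′ UTR among all these genes was 1374 nt long and held 2, and 71.1% held at least 1. The gene with the most pentamers was not called, and the called genes had from 0 to 8.

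Axl and Cd47 followed the level of the interferon-induced genes from library to library, a pattern noticed after the values were seen and given as a description. The mean log2 CPM of those 12 genes was 7.86, 8.17, 8.57 and 8.44 in the control libraries and 4.02, 5.15, 5.65 and 4.58 in the MAARS gapmeR libraries. Within each group Axl and Cd47 ranked the 4 libraries exactly as this mean did, so that 12 of 12 within-group pairs of libraries were in the same order. Among 13039 other genes tested 1.13% did so. The remaining efferocytosis genes had fewer pairs in that order, with 8 for Itgav, Lrp1 and Dnm1l, 7 for Mertk, 6 for Pros1 and Sirpa, and 3 for Gas6 and Mfge8. The points share their libraries and their scaling. For Cd47 the order of control replicates 5 and 7 rested on nearly level values, 395.1 and 395.7 CPM.

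Fibroblast markers ran partly along the same libraries, with summed levels of 684.8, 503.9, 822.2 and 1152 CPM in the controls and 779.9, 1002, 1353 and 835.2 CPM with MAARS gapmeR. Axl and Cd47 had 10 of 12 within-group pairs in the order of this sum, and Gas6 and Mfge8 had 1. Axl and Cd47 ranked the libraries as the interferon mean did, so their 10 pairs only restate how that mean and this sum run together. The share of all genes with as many pairs is not given here. Smooth muscle markers summed to 78.3, 64.8, 78.2 and 121.8 CPM and to 120.8, 161.7, 213.7 and 145.0 CPM. The part of these cells in the levels of the efferocytosis genes was not tested.

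**Figure D4:**
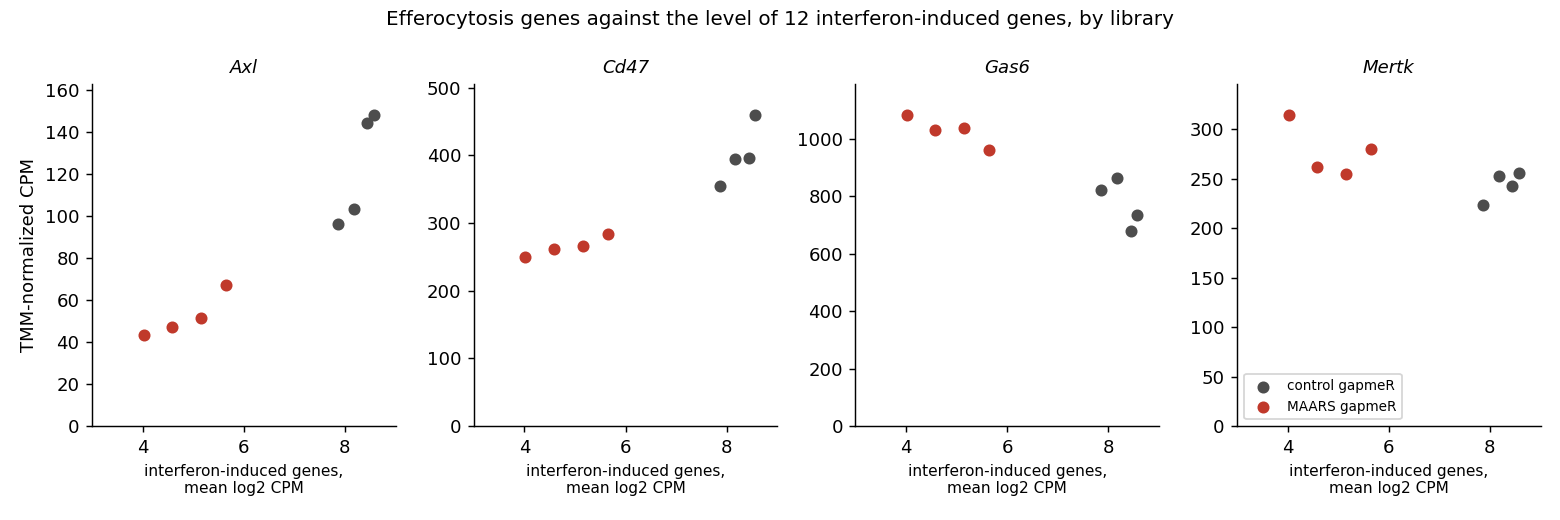
TMM-normalized CPM of Axl, Cd47, Gas6 and Mertk (y axes, from 0) against the mean log2 CPM of 12 interferon-induced genes (x axis), 1 point per library, control gapmeR in grey and MAARS gapmeR in red. Within each group Axl and Cd47 rise with the interferon-induced genes in 12 of 12 pairs of libraries, and Gas6 and Mertk do so in 3 and 7 of 12. Control replicates 5 and 7 are nearly level for Cd47 (395.1 and 395.7 CPM).

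The genes closest in pattern to Mertk, Axl and Cd47 were sought among 8665 genes with a mean of at least 10 CPM, as those with the smallest root mean square difference of gene-centred log2 CPM over the 8 libraries. For Mertk they were Dhx40 (0.0283), Slc45a4 (0.0310) and Fbxo3 (0.0393). Axl had H2-Q2 (0.0798), H2-Q4 (0.0908) and Il2rg (0.0946) nearest to it, where the H2-Q genes are near-identical copies whose counts are uncertain. The nearest to Cd47 were Rasa4 (0.0458), Ctss (0.0462) and Usp25 (0.0469).

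The wider efferocytosis machinery was read from lists of related genes, and up to 3 called genes are named per direction, those of smallest p. The counts of every list below stand beside 21.3% higher and 24.0% lower over all genes tested. Among 17 other receptors of apoptotic cells 13 were tested, 7 were higher, 5 lower and 1 not called, and the median log2 fold change was 0.57 against 0.01 over all genes. Stab1, a phosphatidylserine receptor, rose from 572.8 ± 57.5 to 1539 ± 213.3 CPM (log2 fold change 1.43, adjusted p = 5.27e-06, here and below in edgeR's quasi-likelihood test). Its relative Stab2 rose from 19.2 ± 3.11 to 31.8 ± 2.97 CPM and Cd300a, an inhibitory receptor for phosphatidylserine, from 213.9 ± 20.6 to 320.6 ± 29.1 CPM. Cd300lf, another lipid-binding receptor of the CD300 family, fell from 121.5 ± 17.6 to 36.4 ± 6.82 CPM (log2 fold change -1.74, adjusted p = 5.27e-06). The scavenger receptor gene Msr1 fell from 792.4 ± 102.7 to 414.3 ± 44.1 CPM and Havcr2, which encodes TIM-3, from 97.9 ± 8.22 to 72.7 ± 4.59 CPM.

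Among the partners of Itgav and Lrp1, 6 of 8 were tested, 1 was higher, 2 were lower and 3 were not called (median log2 fold change 0.04). Itgb5, which encodes a β chain that pairs with αv, rose from 310.1 ± 26.8 to 396.3 ± 25.1 CPM (log2 fold change 0.35, adjusted p = 0.0014). Lrpap1, the chaperone of LRP1, fell from 257.3 ± 8.23 to 202.3 ± 3.82 CPM, and Calr, which encodes calreticulin, from 1192 ± 45.3 to 1026 ± 43.2 CPM. Other bridging molecules had 8 of 11 tested, with 2 higher and 4 lower (median -0.21). Thbs1, the gene of thrombospondin-1, rose from 379.2 ± 57.0 to 1018 ± 109.9 CPM (log2 fold change 1.42, adjusted p = 5.27e-06). Edil3, a relative of Mfge8, rose from a low level, 2.10 ± 0.335 to 4.53 ± 0.885 CPM. The complement genes C1qc and C1qb fell, from 1555 ± 190.6 to 1094 ± 44.7 CPM and from 1944 ± 209.2 to 1446 ± 85.0 CPM, and the galectin gene Lgals3 fell from 3977 ± 292.1 to 3271 ± 94.7 CPM.

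The enzymes that mature the TAM ligands or shed their receptors had 2 genes higher, 1 lower and 5 not called of 8 (median log2 fold change 0.15). Adam10, a sheddase, rose from 226.7 ± 16.1 to 261.2 ± 11.4 CPM (adjusted p = 0.0132), and Furin, a proprotein convertase, from 137.7 ± 3.60 to 152.3 ± 7.0 CPM (adjusted p = 0.0225). The call of Furin was lost with no filter (adjusted p = 0.071) and without control replicate 5, MAARS gapmeR replicate 9 or MAARS gapmeR replicate 15 (adjusted p = 0.0684, 0.068 and 0.0613). Rhbdf2 encodes iRhom2, which brings the MerTK sheddase ADAM17 to the cell surface, and it fell from 72.6 ± 6.62 to 50.7 ± 1.94 CPM (log2 fold change -0.52, adjusted p = 8.77e-05).

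Of 9 other brakes tested 5 were lower and 4 were not called, beside 24.0% lower and 21.3% higher over all genes. The median log2 fold change of the brakes was -0.31. The number higher was 0 with edgeR, DESeq2 and limma-voom, and 0 at an unadjusted p under 0.05 in edgeR. That count depends on how genes were placed in the lists, since Cd300a, an inhibitory receptor that was higher, stands with the receptors. Ptpn6, the gene of the phosphatase SHP-1 that SIRPα recruits, fell from 342.0 ± 14.9 to 233.7 ± 14.2 CPM (log2 fold change -0.55, adjusted p = 1.68e-05). Pirb, an inhibitory immunoglobulin-like receptor with close paralogs, fell from 628.5 ± 58.0 to 407.7 ± 18.5 CPM. Qpctl encodes the glutaminyl cyclase that modifies CD47 at its SIRPα binding site, and it fell from 35.1 ± 2.46 to 26.1 ± 1.17 CPM (log2 fold change -0.43, adjusted p = 2.57e-04). Genes on the opposite strand cover 6.96% of the exonic bases of Ptpn6 and 10.9% of those of Qpctl.

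Engulfment signalling was split, with 7 of 17 genes higher, 6 lower and 4 not called (median log2 fold change 0.05). Dock1, a Rac activator that acts with ELMO, rose from 48.2 ± 1.98 to 69.9 ± 3.03 CPM (log2 fold change 0.54, adjusted p = 1.30e-05). The lipid transporter genes Abca1 and Abca7 rose from 559.7 ± 63.1 to 965.9 ± 129.4 CPM and from 23.9 ± 2.18 to 36.0 ± 3.76 CPM. Vav1, another Rac activator, fell from 287.7 ± 13 to 194.5 ± 6.56 CPM (log2 fold change -0.57, adjusted p = 7.12e-06). The focal adhesion kinase gene Ptk2 fell from 19.1 ± 1.53 to 14.5 ± 1.56 CPM, and Elmo2, which encodes a partner of DOCK proteins, from 78.5 ± 2.23 to 67.7 ± 3.96 CPM.

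Of 18 genes of corpse degradation 2 were higher, 7 lower and 9 not called (median log2 fold change -0.05). Cyba and Cybb encode the membrane subunits of the NADPH oxidase used in LC3-associated phagocytosis, and they fell from 831.7 ± 55.0 to 624.3 ± 22.4 CPM and from 1354 ± 144.0 to 993.7 ± 65.6 CPM. Atg16l1, needed for LC3 conjugation, fell from 42.2 ± 1.95 to 33.7 ± 2.86 CPM, whereas Atg7, of the same conjugation system, rose from 90.9 ± 5.20 to 120.6 ± 4.44 CPM (log2 fold change 0.41, adjusted p = 8.21e-05). Mon1b, which acts in the exchange of Rab5 for Rab7, rose from 29.4 ± 2.16 to 33.3 ± 1.43 CPM (adjusted p = 0.0379), a call lost in 6 of the 8 fits without 1 library.

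Mitochondrial fission and fusion genes beside Dnm1l had 3 of 10 lower and 7 not called (median log2 fold change -0.05). Over all genes tested 24.0% were lower and 21.3% higher. In this list the number higher was 0 with edgeR, also at an unadjusted p under 0.05, and 0 with DESeq2 and limma-voom. The fusion gene Mfn2 fell from 103.6 ± 2.79 to 89.8 ± 2.31 CPM (log2 fold change -0.21, adjusted p = 0.00201). Immt, which organizes mitochondrial cristae, had 132.8 ± 3.51 and 119.6 ± 4.82 CPM, and Mief1, an adaptor for DRP1, had 54.2 ± 1.01 and 49.3 ± 2.36 CPM. The calls of Immt and Mief1 (adjusted p = 0.0159 and 0.0414) were lost with at least 1 alternative, and with upper-quartile factors the list had 1 gene higher and 1 lower.

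Among 11 transcription factors known to control efferocytosis genes 4 were higher, 3 lower and 4 not called (median log2 fold change 0.13). Mef2c rose from 91.0 ± 9.36 to 148.3 ± 7.86 CPM (log2 fold change 0.70, adjusted p = 1.87e-05), the retinoid X receptor gene Rxrb from 36.9 ± 2.66 to 54.6 ± 3.20 CPM, and Maf from 512.8 ± 41.8 to 719.8 ± 51.2 CPM. Nr1h3, which encodes the oxysterol receptor LXRα that induces Mertk, fell from 39.0 ± 4.54 to 23.9 ± 3.85 CPM (log2 fold change -0.71, adjusted p = 4.71e-04), and the glucocorticoid receptor gene Nr3c1 from 136.1 ± 8.74 to 117.4 ± 5.15 CPM.

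**Figure D5:**
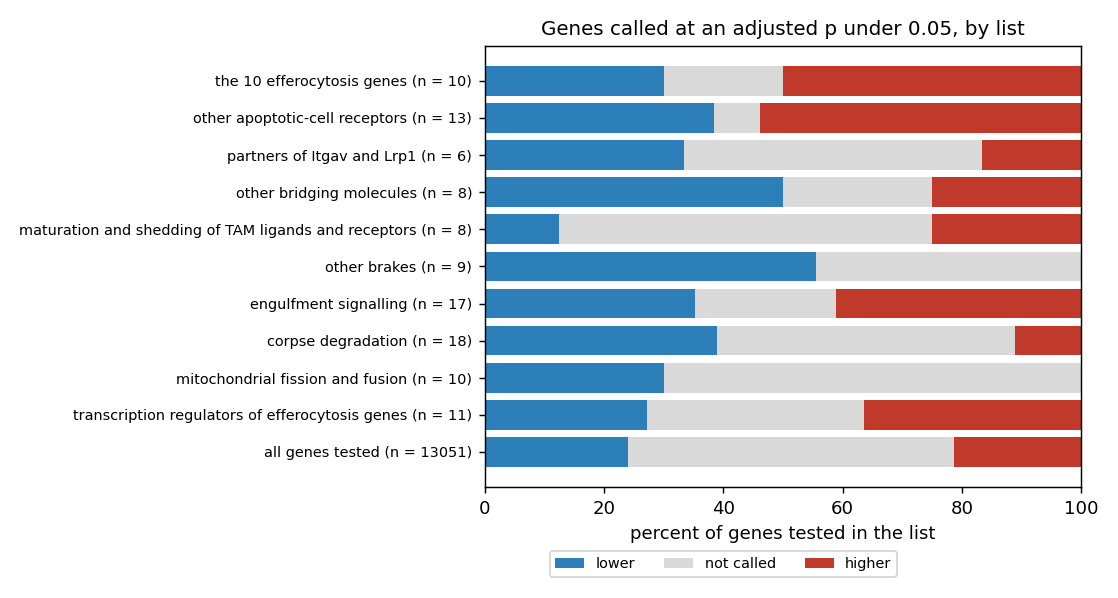
Percent of tested genes (x axis) called higher, called lower and not called in each list of efferocytosis genes and over all genes, MAARS gapmeR against control gapmeR (edgeR, adjusted p under 0.05). Other receptors hold 7 higher and 5 lower of 13, other brakes 0 higher and 5 lower of 9, and corpse degradation 2 higher and 7 lower of 18, beside 21.3% higher and 24.0% lower over all genes.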

How the data were processed

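RNA-Seq of 8 BMDM libraries was used, 4 with control gapmeR and 4 with MAARS gapmeR, grouped by the labels. The authors trimmed reads with Trimmomatic 0.36, aligned them with STAR 2.5.2b to GRCm38 and deposited raw read counts per gene from featureCounts (Subread 1.5.2). The setting for strand and the handling of reads with several positions are not given in the sources used here. From 19287279 to 24541205 counts per library set the precision. Replicates of a group differed by a chi-square of 4.24 to 15.1 per gene, so none were the same library within sampling noise.

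The filter was edgeR's filterByExpr with a minimum of 10 counts and a total of 15, and groups were compared with TMM factors, glmQLFit and glmQLFTest of edgeR 4.0.16 in R 4.3.3. Benjamini-Hochberg adjustment covered all 13051 genes tested. Ratios were compared by two-sided exact permutation tests over libraries. Symbols, positions and exon lengths came from GENCODE M21, in which 99.47% of identifiers were found, and promoters from RefSeq. Of the genes listed, 186 of 187 were found, and Lilrb4a was not analysed here. The number of per-sample columns not used was 0.

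The named genes were the 10 efferocytosis genes, MAARS, up to 3 called genes with the smallest p per direction of each list, and the 3 genes nearest in pattern to Mertk, Axl and Cd47. Some genes that this rule names are not reported here. The 10 genes and the lists were chosen with earlier results of these data known, and the fall of the interferon-induced genes was known. Alternatives were RLE and upper-quartile factors, DESeq2 1.42.0, limma-voom (limma 3.58.1), 1 surrogate variable (sva 3.50.0), a filter on a mean of 10 counts or none, a fold change of at least 1.5, a pseudocount of 1 for the ratios and each library left out in turn. The procedure was tested on simulated data.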

Additional observations from a re-analysis of the deposited data

Results flagged for a closer look

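Within each group of 4 libraries the highest and the lowest value of the named genes and ratios were compared with the other 3, and 5 of 114 groups had a library that stood apart, where chance gives about 1 in 20. None was one of the 10 efferocytosis genes or their ratios. In the control group Edil3 was highest in replicate 6, at 2.60 CPM against 2.00 CPM in the nearest library, and Adam10 was lowest in replicate 7, at 202.5 CPM against 234.1 CPM. In the MAARS gapmeR group Cyba was highest in replicate 13 (657.8 against 614.3 CPM), as was Cxcl10, an interferon-induced chemokine (2.21 against 0.955 CPM). Maf was highest in replicate 9, at 796.4 CPM with 697.9 CPM in the nearest library.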

How the results depend on the processing

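No result reversed its direction under any alternative run. Axl, Gas6, Lrp1, Sirpa and Cd47 were called, and Itgav was not called, in all 15 alternative fits across genes. With upper-quartile factors Dnm1l was at -0.13 (adjusted p = 0.0515), and with 1 surrogate variable Mfge8 was called at 0.14 (adjusted p = 0.0461). Leaving out 1 library gave log2 fold changes from 0.12 to 0.23 for Mertk, from 0.18 to 0.30 for Pros1 and from 0.07 to 0.23 for Mfge8. It gave 3 to 5 higher efferocytosis genes, 1 to 3 higher genes of maturation and shedding and 1 to 2 of corpse degradation. With a fold change of at least 1.5 added, 0 of the 10 genes were called higher by edgeR, DESeq2 or limma-voom, and 0 at an unadjusted p under 0.05 in edgeR, beside the 5 called without it. Partners of Itgav and Lrp1 had 2 higher genes with upper-quartile factors and with DESeq2. Corpse degradation had 4 higher genes with upper-quartile factors and 1 with no filter, and fission and fusion had 1 higher and 1 lower gene with upper-quartile factors. Those factors moved log2 fold changes up by a median of 0.06 and gave 3622 higher and 2379 lower genes, 60.4% higher, against 2782 and 3137, 47.0% higher, as reported. The causes were not tested. Of 43 named list genes 4 lost their call in at least 1 alternative and 0 reversed. No paired analysis was possible because the groups share no replicate numbers. With 4 libraries a group, changes within the intervals given for Itgav and Mfge8 could not be told from none, and the RNA levels do not measure protein at the cell surface.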
